A study of Mus musculus with 8 samples.

Results

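HSF1 and the cytosolic heat shock chaperones were described in kidney cells of the mouse line RFB that had received TGF-β, with or without chaetocin. The members were the 10 rows of the deposited gene table whose symbol is Hsf1, Hsp90aa1, Hsp90ab1, Hspa1a, Hspa1b, Hspa8, Hsph1, Hspb1, Hspb8 or Bag3. All 10 were found among the 22274 genes of the table, and all 10 passed the filter on low counts that kept 14608 genes for testing. The study compared 4 RNA sequencing libraries of cells given TGF-β and chaetocin with 4 libraries of cells given TGF-β alone. TGF-β is a cytokine that drives fibroblasts to make matrix, and chaetocin, made by a fungus, is used to inhibit SUV39 histone methyltransferases. Both groups carried TGF-β, so no value below describes TGF-β itself. The sources used here give no dose, time, strain or origin of the line. They also do not say whether each library had its own culture, so the p-values reflect only the spread over these libraries, which may be technical. The design text of the series names knockdown derivatives, but no label of these 8 libraries mentions a knockdown.

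HSF1 is the transcription factor that drives the heat shock response. In unstressed cells it is held inactive by chaperones, and when misfolded proteins occupy those chaperones it forms trimers, binds heat shock elements in DNA and raises the transcription of chaperone genes, so its activity is set largely on the protein and not on its transcript. HSP90 and HSP70 proteins fold clients at the expense of ATP, each with an inducible and a constitutive cytosolic form, while HSP110 exchanges the nucleotide of HSP70 and small heat shock proteins hold unfolded clients.

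The depth was 14421225 to 22591935 counts in the chaetocin libraries, where replicate 1 was the deepest, and 20135312 to 23664084 counts in the TGF-β libraries. The lowest count behind any value of a member was 252. The cell type label is fibroblast, and the libraries were checked against marker lists. Levels are in CPM, counts per library brought to a shared depth by TMM scaling. The 12 fibroblast markers summed to 2021 to 2352 CPM with chaetocin and to 2674 to 2773 CPM with TGF-β alone, most of it Vim and Acta2. Col1a1 was at 58.1 ± 9.17 CPM with chaetocin and 233 ± 10.6 CPM with TGF-β alone (SD, n = 4 each). Pdgfra was at most 4.40 CPM and Lum at most 0.446 CPM in any library. Of the 11 fibroblast markers tested, 3 were higher with chaetocin, among them Acta2, and 5 lower, among them Col1a1 and Vim. The 11 tubule epithelial markers summed to 7154 to 7435 CPM with chaetocin and to 4593 to 4728 CPM with TGF-β alone, with Epcam at 301.6 ± 6.38 CPM and 285 ± 7.44 CPM (SD, n = 4 each). The libraries thus held strong epithelial transcripts, which goes against fibroblasts as the sole cell type. Of the 10 epithelial markers tested, 4 were higher and 5 lower with chaetocin. The higher sum came from the keratins Krt8, at 3615 ± 46.6 CPM with chaetocin and 1582 ± 29.6 CPM with TGF-β alone, and Krt18, at 1783 ± 43.4 CPM and 812 ± 18.4 CPM, while Cdh1, Pax8, Cldn4, Lrp2 and Aqp1 were lower (SD, n = 4 each). The 9 macrophage and leukocyte markers summed to 155 to 188 CPM with chaetocin and 256 to 296 CPM with TGF-β alone, and the 5 endothelial markers to 82.2 to 90.0 CPM and 50.8 to 57.2 CPM. Neither list moved as 1. With chaetocin 3 macrophage and leukocyte markers were higher and 5 lower, and 4 endothelial markers were higher and 1 lower. Among all these markers none was at 0 in all 8 libraries, Umod, Aqp2 and Cd3e joined Lum below 1 CPM in all 8, and the part of other cell types in the results below was not tested.

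Promoter windows of 6 members were matched in RefSeq on the build GRCm38.p6, each from 250 bases before to 50 bases after a start site. They are shown because heat shock elements are the sequence HSF1 binds. The letters searched were the inverted repeats GAANNTTC and TTCNNGAA, each of which reads the same on both strands, and their matches are in capitals. A GAANNTTC and a TTCNNGAA can overlap by their shared unit of 3 letters, and such a run in either order, which gives 3 alternating units, was counted as the repeat of 3 units. The 4 windows below are Hspa1a and Hspa1b, whose windows are nearly the same but whose measured changes were not, Hsph1, which held the repeat of 3 units, and Bag3, whose transcript was not called. How reads were split between Hspa1a and Hspa1b is uncertain, as described below.
Hspa1a: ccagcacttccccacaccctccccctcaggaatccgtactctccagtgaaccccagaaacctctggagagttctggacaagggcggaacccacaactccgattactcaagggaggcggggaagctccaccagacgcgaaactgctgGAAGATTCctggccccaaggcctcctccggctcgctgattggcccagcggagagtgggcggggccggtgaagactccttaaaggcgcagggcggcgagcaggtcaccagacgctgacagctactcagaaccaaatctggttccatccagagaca
Hspa1b: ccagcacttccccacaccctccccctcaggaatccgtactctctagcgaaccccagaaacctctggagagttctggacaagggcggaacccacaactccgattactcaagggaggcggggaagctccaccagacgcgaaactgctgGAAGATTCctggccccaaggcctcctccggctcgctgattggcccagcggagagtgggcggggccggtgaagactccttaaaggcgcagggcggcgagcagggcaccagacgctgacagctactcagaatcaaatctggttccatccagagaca
Hsph1: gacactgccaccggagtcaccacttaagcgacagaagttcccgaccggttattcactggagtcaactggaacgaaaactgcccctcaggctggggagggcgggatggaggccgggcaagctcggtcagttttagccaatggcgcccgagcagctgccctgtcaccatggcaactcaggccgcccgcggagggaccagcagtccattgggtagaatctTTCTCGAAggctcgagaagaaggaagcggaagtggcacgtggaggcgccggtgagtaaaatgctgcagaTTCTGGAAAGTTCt
Bag3: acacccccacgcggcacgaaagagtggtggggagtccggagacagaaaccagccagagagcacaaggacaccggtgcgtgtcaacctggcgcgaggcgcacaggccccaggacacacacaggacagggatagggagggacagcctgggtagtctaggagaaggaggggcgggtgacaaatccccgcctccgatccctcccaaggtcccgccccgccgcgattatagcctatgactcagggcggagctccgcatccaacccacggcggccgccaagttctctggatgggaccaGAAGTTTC
These windows lie at chr17:34972107-34972406, minus strand, at chr17:34959189-34959488, minus strand, at chr5:149636287-149636586, minus strand, and at chr7:128523333-128523632, plus strand. The Hspa1a and Hspa1b windows were identical at 98.67% of 300 bases. Counted from 1 at the 5′ end, with the base of Hspa1a given before that of Hspa1b, the 4 differences were C44T, T47C, T249G and C276T. None fell in the repeat, which began at base 147 in both.
All 6 members with a window held a repeat of 2 units, which 17% of 27025 genes with a window did. In Hspb1 there were 2, beginning at bases 134 and 154, and in Hspb8 there was 1, beginning at base 253, just after the start site, as in Bag3, where it began at base 293. Only Hsph1, in both of its windows, held the repeat of 3 units, which 0.662% of genes did. In the Hsph1 window above that repeat began at base 287, also after the start site. A separate repeat of 2 units in that window began at base 218, before the start site. The Bag3 repeat ended on the last base of its window, so a further unit beyond it could not be seen. The repeats were thus present in members that rose and in members that did not. A match is a description of letters and not of binding.

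Of the 10 members, 6 were higher and 2 were lower with chaetocin, and 2 were not called (edgeR, Benjamini-Hochberg adjusted p under 0.05). Among all tested genes 80.7% were called, with 42.0% higher and 38.8% lower, so a called member is by itself common in these data. With a fitted fold of at least 2, 4 members were higher and 0 lower, where 24.6% of all tested genes were past that fold, 19.7% higher and 4.88% lower. The median log2 fold change of the members was 0.64, against 0.02 over all tested genes. The CPM of both groups did not overlap in 7 members, 6 of them higher and 1 lower with chaetocin, against 74.7% of tested genes, 39.0% higher and 35.7% lower. In bulk samples fewer cells of a type and less RNA per cell cannot be told apart. Unless another test is named, each adjusted p below comes from edgeR's quasi-likelihood test with Benjamini-Hochberg adjustment over every gene tested. Errors after ± on a log2 fold change are standard errors.

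**Figure D1:**
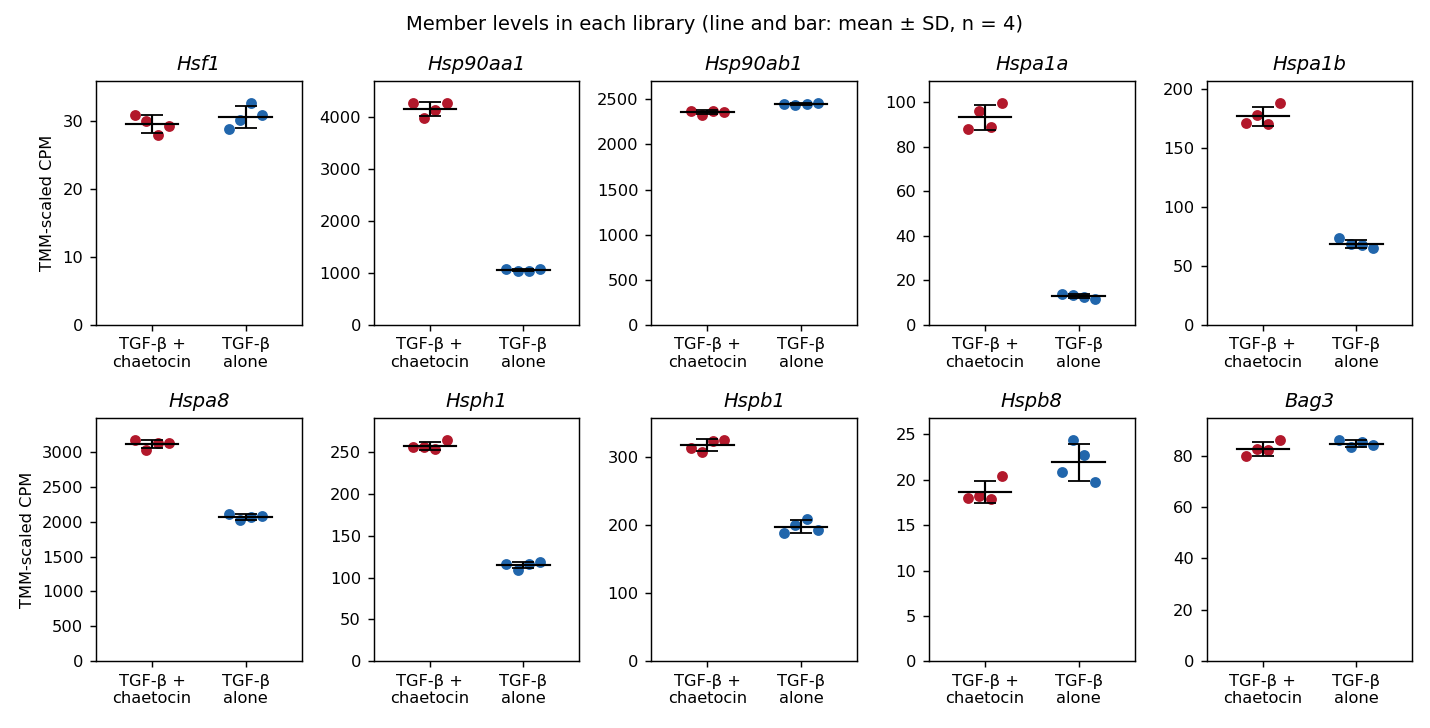
TMM-scaled CPM of the 10 members on axes that start at 0, with 4 libraries per group as points and the mean ± SD as lines. Hsp90aa1, Hspa1a, Hspa1b, Hspa8, Hsph1 and Hspb1 lie higher in all 4 chaetocin libraries, while Hsf1, Hspb8 and Bag3 overlap between groups.

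The transcript of the regulator itself, Hsf1, had 31.0, 30.1, 27.9 and 29.4 CPM in chaetocin libraries 1 to 4, against 28.8, 30.2, 32.7 and 31.0 CPM in TGF-β libraries 1 to 4. The groups overlapped and neither was uniformly higher. The log2 fold change was -0.05 ± 0.05 (adjusted p = 0.427), with a 95% interval of -0.15 to 0.06. Behind these values were 419 to 726 counts per library with chaetocin and 586 to 704 with TGF-β alone, and 45.3% of tested genes had a lower log2 fold change. Hsf1 (ENSMUSG00000022556) is on chromosome 15, positions 76477422 to 76501913, plus strand, and its exons overlap those of no other annotated gene.

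Hsp90aa1, the inducible cytosolic HSP90, was the member with the most added transcript. It reached 4274, 3982, 4134 and 4271 CPM in chaetocin libraries 1 to 4, against 1077, 1031, 1035 and 1083 CPM in TGF-β libraries 1 to 4. All chaetocin libraries were far above all TGF-β libraries, and the means differed 3.94-fold. The log2 fold change was 1.98 ± 0.02 (adjusted p = 5.1e-30), and 88.1% of tested genes had a lower one. Hsp90ab1, the constitutive cytosolic HSP90, had 2375, 2326, 2366 and 2358 CPM with chaetocin, against 2451, 2437, 2445 and 2458 CPM with TGF-β alone. Its groups did not overlap, but the difference was small, with a log2 fold change of -0.05 ± 0.02 (adjusted p = 0.00863), and its sign was the opposite under total-count scaling, at 0.06 (adjusted p = 0.0037). The direction of Hsp90ab1 therefore depends on scaling.

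The HSP90 pair exchanged rank within each library. Per gene length, Hsp90aa1 made up 58.7% to 60.1% of the summed FPKM of the pair with chaetocin and 25.9% to 26.9% with TGF-β alone. The log2 ratio of Hsp90aa1 to Hsp90ab1 counts, which no scaling between libraries can move, was 0.82 ± 0.04 with chaetocin and -1.21 ± 0.03 with TGF-β alone (SD, n = 4 each). The difference of 2.03 gave p = 0.0286 in an exact two-sided permutation test, the smallest that 4 against 4 libraries allow. It was also 0.0286 after adjustment over the 3 ratios computed. Hsp90aa1 (ENSMUSG00000021270) spans 110690605 to 110702728 of chromosome 12 and Hsp90ab1 (ENSMUSG00000023944) spans 45567775 to 45573271 of chromosome 17, both on the minus strand. Of the 100-base windows of annotated Hsp90aa1 transcripts 38.0% also occur in transcripts of 3 other genes, mostly Gm12346, and those of Hsp90ab1 occur in no other gene.

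**Figure D2:**
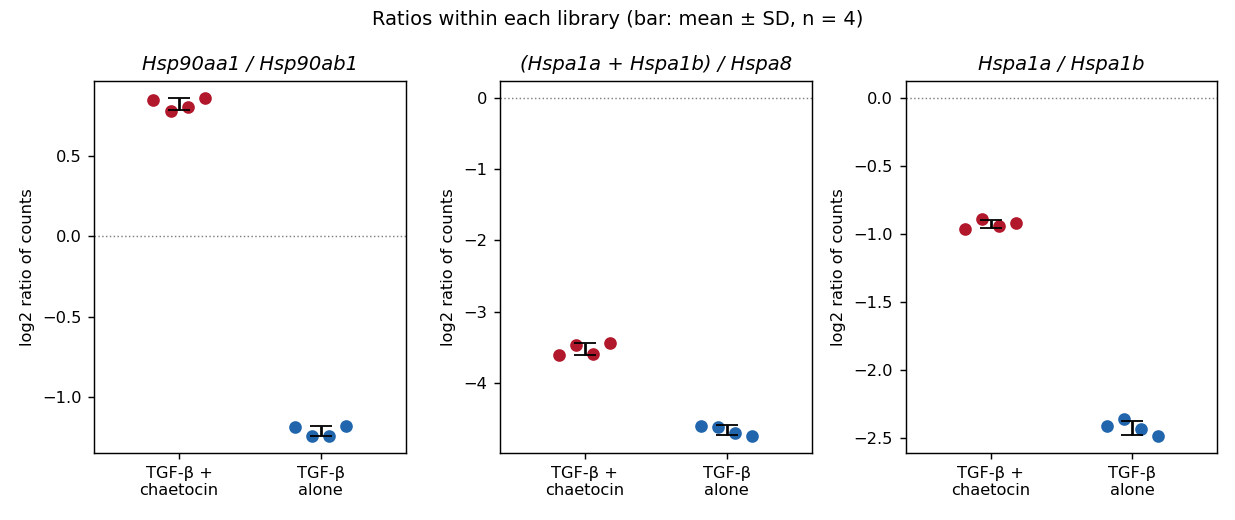
Log2 ratio of counts within each library for Hsp90aa1 over Hsp90ab1, for Hspa1a plus Hspa1b over Hspa8, and for Hspa1a over Hspa1b, with 4 libraries per group as points and mean ± SD as bars; the dotted line marks equal counts. All 3 ratios are higher in every chaetocin library than in any TGF-β library, and Hsp90aa1 over Hsp90ab1 is above 0 with chaetocin and below 0 with TGF-β alone.

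The inducible HSP70 genes Hspa1a and Hspa1b both rose. Hspa1a was at 88.1, 96.4, 88.8 and 99.7 CPM in chaetocin libraries 1 to 4, against 13.8, 13.4, 12.4 and 11.7 CPM in TGF-β libraries 1 to 4. Its log2 fold change of 2.86 ± 0.05 (adjusted p = 6.4e-26) was the largest among the members, a 7.28-fold difference of means. Hspa1b was more abundant in both groups, at 171, 178, 170.4 and 188 CPM with chaetocin, against 73.4, 68.7, 67.3 and 65.5 CPM with TGF-β alone. Its log2 fold change was 1.36 ± 0.04 (adjusted p = 1.1e-22). In both genes the lowest chaetocin library was above the highest TGF-β library.

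The near-identical promoter windows of this pair thus stood before genes with unequal measured changes, which the placing of shared reads can affect. Hspa1a accounted for 32.7% to 33.8% of the summed FPKM of Hspa1a and Hspa1b with chaetocin and for 14.4% to 15.5% with TGF-β alone. The log2 ratio of Hspa1a to Hspa1b counts was -0.93 ± 0.03 with chaetocin and -2.43 ± 0.05 with TGF-β alone (SD, n = 4 each). This ratio was chosen after its values were seen, and its difference of 1.5 gave p = 0.0286 in an exact two-sided permutation test. The genes lie 9951 bases apart on the minus strand of chromosome 17, Hspa1b (ENSMUSG00000090877) at 34956436 to 34959238 and Hspa1a (ENSMUSG00000091971) at 34969190 to 34972156. Of the 100-base windows of Hspa1a transcripts 47.1% also occur in Hspa1b, and 49.9% of those of Hspa1b in Hspa1a, so reads from the shared stretches can be placed in either gene. The sources used here do not say how the authors counted them, and both values are uncertain for that reason. Summed to 1 feature before the fit, the pair had a log2 fold change of 1.73. On the opposite strand 564 exon bases of Hspa1a, 19.0%, overlap Gm20481, which had 0 counts in all 8 libraries.

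Hspa8, the constitutive HSP70 that carries most cytosolic HSP70 transcript here, rose less. It had 3169, 3028, 3118 and 3129.7 CPM in chaetocin libraries 1 to 4, against 2111, 2016, 2069 and 2076 CPM in TGF-β libraries 1 to 4. The groups were well apart, at a log2 fold change of 0.59 ± 0.02 (adjusted p = 4.6e-20). The inducible pair was 6.41% to 7.14% of the summed FPKM of Hspa1a, Hspa1b and Hspa8 with chaetocin and 3.05% to 3.38% with TGF-β alone. Its log2 ratio to Hspa8 counts was -3.53 ± 0.09 with chaetocin and -4.67 ± 0.07 with TGF-β alone (SD, n = 4 each), a difference of 1.14 (exact two-sided permutation p = 0.0286, also after adjustment over the 3 ratios). Inducible HSP70 transcripts thus gained on Hspa8 but remained the smaller part. Hspa8 (ENSMUSG00000015656), on chromosome 9 at 40800984 to 40810087, plus strand, hosts the small nucleolar RNAs Snord14c, Snord14d and Snord14e, and 28.5% of its 100-base windows occur in 9 other annotated genes.

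Hsph1, the HSP110 that exchanges the nucleotide of HSP70, had 255, 256, 253 and 264 CPM in chaetocin libraries 1 to 4, against 117, 109.5, 116 and 118 CPM in TGF-β libraries 1 to 4. All chaetocin libraries were above all TGF-β libraries, with a log2 fold change of 1.16 ± 0.03 (adjusted p = 1.3e-23). Bag3, another exchange factor of HSP70, which links it to small heat shock proteins and to autophagy, behaved otherwise. It had 79.7, 82.4, 82.0 and 86.1 CPM with chaetocin, against 86.0, 83.2, 85.3 and 84.1 CPM with TGF-β alone. Bag3 levels overlapped, the log2 fold change was -0.04 ± 0.03 (adjusted p = 0.276), and its 95% interval ran from -0.11 to 0.03. Under total-count scaling Bag3 was called higher, at 0.08 (adjusted p = 0.0394). Hsph1 (ENSMUSG00000029657) is on chromosome 5 at 149614287 to 149636376, minus strand, and Bag3 (ENSMUSG00000030847) on chromosome 7 at 128523616 to 128546981, plus strand, and neither shares a 100-base window with another annotated gene.

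The small heat shock proteins among the members went apart. Hspb1, known as HSP27 in humans, had 313, 306, 323 and 324 CPM in chaetocin libraries 1 to 4, against 188, 199.8, 209 and 192 CPM in TGF-β libraries 1 to 4. Hspb1 rose in all chaetocin libraries, with a log2 fold change of 0.68 ± 0.03 (adjusted p = 6.9e-18). Its pseudogene Hsp25-ps1 holds 44.0% of the 100-base windows of Hspb1. Hspb8, the partner of Bag3, had 18, 18.2, 17.9 and 20.4 CPM with chaetocin, against 20.8, 24.4, 22.7 and 19.8 CPM with TGF-β alone. The groups overlapped only between replicate 4 of each, and the log2 fold change was -0.23 ± 0.07 (adjusted p = 0.0031). Under total-count scaling that call was lost, at -0.12 (adjusted p = 0.117). Both genes are on chromosome 5, Hspb1 (ENSMUSG00000004951) at 135887919 to 135889563, plus strand, and Hspb8 (ENSMUSG00000041548) at 116408491 to 116422864, minus strand.

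Among the 4 members with changes near 0, the calls of Hsp90ab1, Hspb8 and Bag3 moved with scaling, while Hsf1 was called under no scaling and changed only its sign. Total-count scaling shifted the median over every tested gene by 0.11, to 0.14, against 0.02 under TMM. It called 8 members higher and 0 lower, against 49.2% and 30.9% of all tested genes under the same scaling. Measured from that median, Hsf1 was at -0.07 and Hsp90ab1 at -0.08 under both TMM and total-count scaling, Bag3 at -0.06 and Hspb8 at -0.26 under both. These 4 members were slightly below the median gene under both. A change of scaling moves every gene by nearly the same amount, so that agreement was fixed in advance and adds no support. On log2(FPKM + 1) with limma, Hsp90ab1 and Bag3 were both 0.01 above that fit's median, Hspb8 was 0.17 below it and Hsf1 was at -0.05 from it. That fit called Hsp90ab1 and Bag3 higher (limma adjusted p = 0.00142 and 0.0471). It did not call Hspb8 or Hsf1 (limma adjusted p = 0.163 and 0.743). In the authors' deposited table the log2 ratio of mean FPKM was 0.02 for Hsf1 (FDR 0.598), 0.07 for Hsp90ab1 (FDR 0.000298), 0.08 for Bag3 (FDR 0.464) and -0.12 for Hspb8 (FDR 0.0144). The other 6 members were called higher under every alternative scaling, filter and test that was run without a fold minimum.

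**Figure D3:**
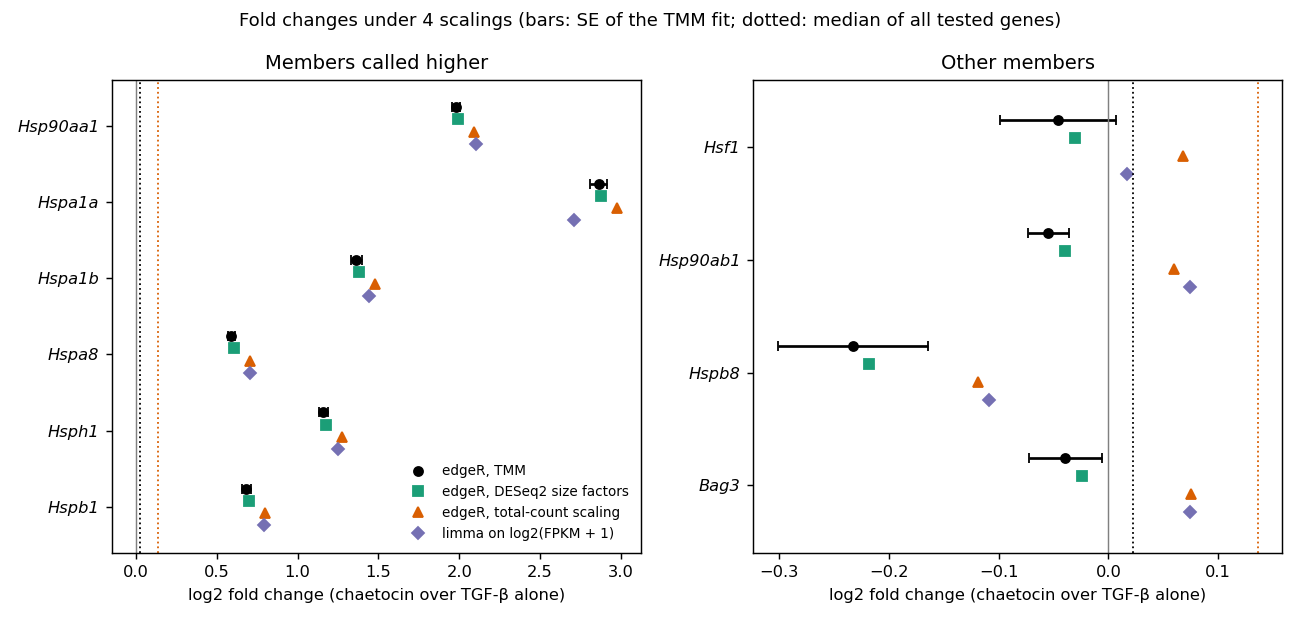
Log2 fold change of each member, chaetocin over TGF-β alone, under 4 scalings, with the SE of the TMM fit as bars and dotted lines at the median of all tested genes under TMM (0.02) and total-count scaling (0.14). The 6 members on the left stay far above 0, whereas Hsf1, Hsp90ab1 and Bag3 on the right cross 0.

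Levels between genes were compared per gene length, as deposited FPKM. With chaetocin the order was Hsp90aa1 at 1444 ± 45.6, Hspa8 at 1353 ± 22.3, Hsp90ab1 at 985 ± 8.47 and Hspb1 at 364 ± 9.76 FPKM, then Hsph1, Hspa1b, Bag3, Hspa1a, Hsf1 and Hspb8 (SD, n = 4). With TGF-β alone it was Hsp90ab1 at 936 ± 2.65, Hspa8 at 831 ± 13.1, Hsp90aa1 at 335 ± 8.91 and Hspb1 at 210.0 ± 10.3 FPKM, then Bag3, Hsph1, Hspa1b, Hsf1, Hspb8 and Hspa1a (SD, n = 4). Hsp90aa1 thus stood above Hsp90ab1 and Hspa8 with chaetocin and below both without it, and Hspa1a was the lowest member with TGF-β alone, at 4.15 ± 0.297 FPKM, against 32.7 ± 2.04 FPKM with chaetocin. Hsp90aa1 and Hspa8 were close with chaetocin, and 38.0% and 28.5% of their 100-base windows occur in other genes. Their order is therefore less certain, as the counting of such reads is not known. Neighbours in the order that overlapped were Bag3 and Hspa1a with chaetocin, and Bag3 and Hsph1 with TGF-β alone. All other neighbours were apart in all 4 libraries of a group. The 10 members together took 1.07% to 1.12% of all counts with chaetocin and 0.579% to 0.590% with TGF-β alone.

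**Figure D4:**
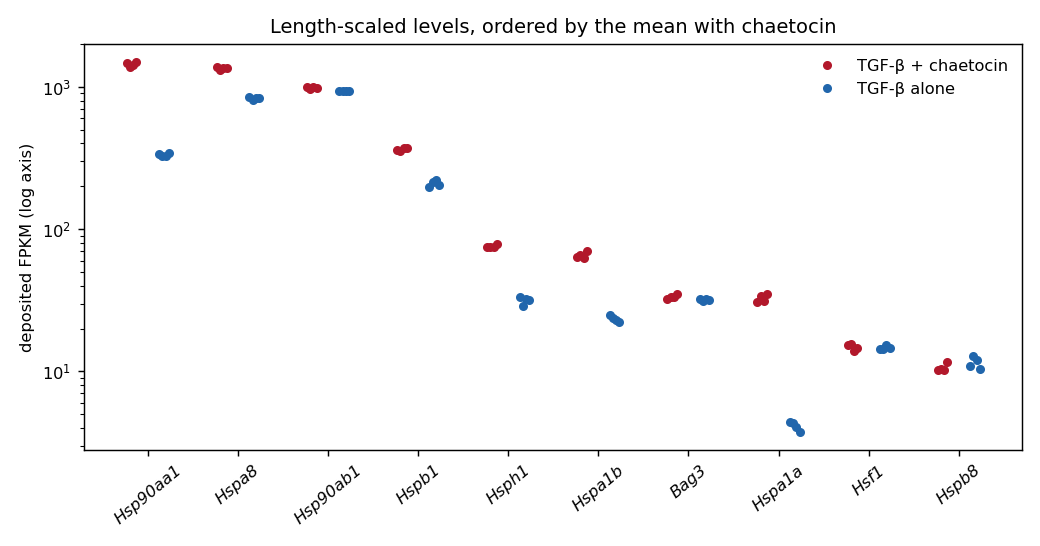
Deposited FPKM of the members on a log axis, ordered by the mean with chaetocin, with 4 libraries per group as points. Hsp90aa1, Hspa8 and Hsp90ab1 are the 3 highest members in both groups, and Hspa1a is level with Bag3 with chaetocin and is the lowest member with TGF-β alone.

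Across the 8 libraries, Hsp90aa1 log2 CPM was most like that of Nopchap1, Hnrnpul2 and Zfp488, each with Pearson's r of 0.9998. The libraries form 2 treatment groups, and 1888 of the 9789 genes compared had r over 0.95 with Hsp90aa1. Hsf1 was most like Ewsr1 (r = 0.954), Ppm1a (0.941) and Coq6 (0.918), and Ewsr1 alone passed 0.95.

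Related genes were taken from 10 lists of 87 genes that are not members, of which 80 were tested. Of these 38 were higher (47.5%) and 27 lower (33.8%), against 42.0% and 38.8% of all tested genes, and the median log2 fold change was 0.09, against 0.02. Total-count scaling gave 51 higher (63.8%) and 21 lower (26.2%) list genes, against 49.2% and 30.9% of all tested genes under that scaling. Past a fold of 2, 10 list genes were higher (12.5%) and 1 lower (1.25%), against 19.7% and 4.88% of all tested genes. The gap between the list genes and all genes thus depended on the scaling and on the fold minimum. Each list count below stands beside the same shares of all tested genes. Those are 42.0% higher and 38.8% lower under TMM, and 49.2% and 30.9% under total-count scaling. No list was tested as a set. In all, 14 of the 29 genes named from the lists have exons that overlap another gene, and since the sources used here do not say whether counting used strand, their counts are less certain.

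Other HSP70 and HSP110 genes were mostly higher, with 6 of 8 higher and 1 lower under both TMM and total-count scaling (median log2 fold change 0.41). Hspa1l, an HSP70 gene of the same locus as Hspa1a and best known from testis, was at 10.1 ± 1.30 CPM with chaetocin and 1.24 ± 0.224 CPM with TGF-β alone (log2 fold change 3.03 ± 0.15, adjusted p = 2.8e-16), although 71.9% of its exon bases overlap the antisense gene Gm10501. Hspa2, another HSP70 known from germ cells, rose to 81.4 ± 2.95 CPM with chaetocin, against 26.4 ± 1.05 CPM (SD, n = 4 each). Hspa13, a microsomal HSP70 relative, fell to 45.5 ± 2.87 CPM with chaetocin, against 77.0 ± 4.48 CPM with TGF-β alone.

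Small heat shock proteins outside the members were higher in 4 of 5 tested cases and lower in 0, and in 5 of 5 under total-count scaling. The list has 8 genes, and Cryaa, Hspb3 and Hspb9, with at most 11 counts in any library, were not tested. Cryab, the αB-crystallin that chaperones filaments, had 352 ± 8.50 CPM with chaetocin and 157 ± 2.58 CPM with TGF-β alone (log2 fold change 1.17 ± 0.03, adjusted p = 1.3e-24). Hspb6, known as HSP20, had 24.7 ± 0.361 CPM with chaetocin and 6.97 ± 0.633 CPM with TGF-β alone (log2 fold change 1.82 ± 0.07, adjusted p = 1.4e-18).

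Among the other BAG and exchange factors 1 of 6 was higher and 4 were lower, and 2 and 3 under total-count scaling. Bag6, which guards hydrophobic proteins in the cytosol, rose by 0.76 ± 0.03 (adjusted p = 1.6e-19). Bag5 and Bag2, an inhibitor of the ubiquitin ligase CHIP, had log2 fold changes of -0.87 ± 0.07 and -0.58 ± 0.05 (adjusted p = 1.2e-11 and 2.8e-11). The HSP90 and HSP70 co-chaperones were even, with 9 of 21 higher and 9 lower (median -0.03), and 11 higher and 5 lower under total-count scaling (median 0.08). Ppid, a cyclophilin of the HSP90 complex, and Chordc1, an HSP90 partner, rose by 0.67 ± 0.03 and 0.65 ± 0.03 (adjusted p = 4.6e-16 and 5.1e-17). The HSP90 partners Cdc37l1 and Fkbp4, an immunophilin, had log2 fold changes of -0.49 ± 0.04 and -0.29 ± 0.03 (adjusted p = 3.1e-11 and 4.5e-10).

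Cytosolic J-domain proteins, which start the ATP cycle of HSP70, were higher in 3 of 8 cases and lower in 3, and in 5 and 3 under total-count scaling. Under TMM that is 37.5% each, near the shares of all tested genes. Dnajb1, the HSP40 of the heat shock response, rose to 112 ± 4.24 CPM with chaetocin, against 42.2 ± 2.49 CPM with TGF-β alone (log2 fold change 1.41 ± 0.04, adjusted p = 5.5e-22). Dnaja1 rose by 0.23 ± 0.02, and Dnajb5 and Dnajc7 had log2 fold changes of -0.54 ± 0.06 and -0.31 ± 0.03 (adjusted p = 1.8e-09, 1.5e-08 and 2.0e-10). The chaperonin TRiC, which folds actin and tubulin, was higher in 4 of 8 tested cases and lower in 0, by little, with Cct7 at 0.19 ± 0.02 and Cct8 at 0.15 ± 0.02 (adjusted p = 6.9e-08 and 1.1e-06), and all 8 were higher under total-count scaling. Cct6b, the remaining subunit, had at most 8 counts and was not tested.

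Chaperones of mitochondria were higher in 5 of 7 cases and lower in 2 under both scalings. The protease Lonp1 had 202 ± 10.4 CPM with chaetocin and 93.5 ± 2.74 CPM with TGF-β alone (adjusted p = 2.0e-21), and the chaperonin Hspd1, HSP60, 573 ± 14.5 CPM and 365 ± 2.66 CPM (adjusted p = 7.0e-20; SD, n = 4 each). Clpb and Trap1, a mitochondrial HSP90, had log2 fold changes of -0.47 ± 0.06 and -0.26 ± 0.04 (adjusted p = 2.1e-08 and 1.4e-07). In the endoplasmic reticulum 3 of 4 genes were lower and 0 higher under both scalings. The HSP70 of that compartment, Hspa5, fell to 616 ± 8.08 CPM with chaetocin, against 936 ± 17.9 CPM with TGF-β alone, and its HSP90, Hsp90b1, to 523 ± 19.8 CPM, against 783 ± 12.4 CPM (adjusted p = 8.3e-20 and 4.9e-18). Cytosolic Hsp90aa1 and Hspa1a and their relatives in the endoplasmic reticulum thus had opposite signs. Of the constitutive cytosolic forms, Hspa8 also rose, at 0.59. Hsp90ab1, at -0.05 under TMM and 0.06 under total-count scaling, shared the sign of Hsp90b1 under TMM only.

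**Figure D5:**
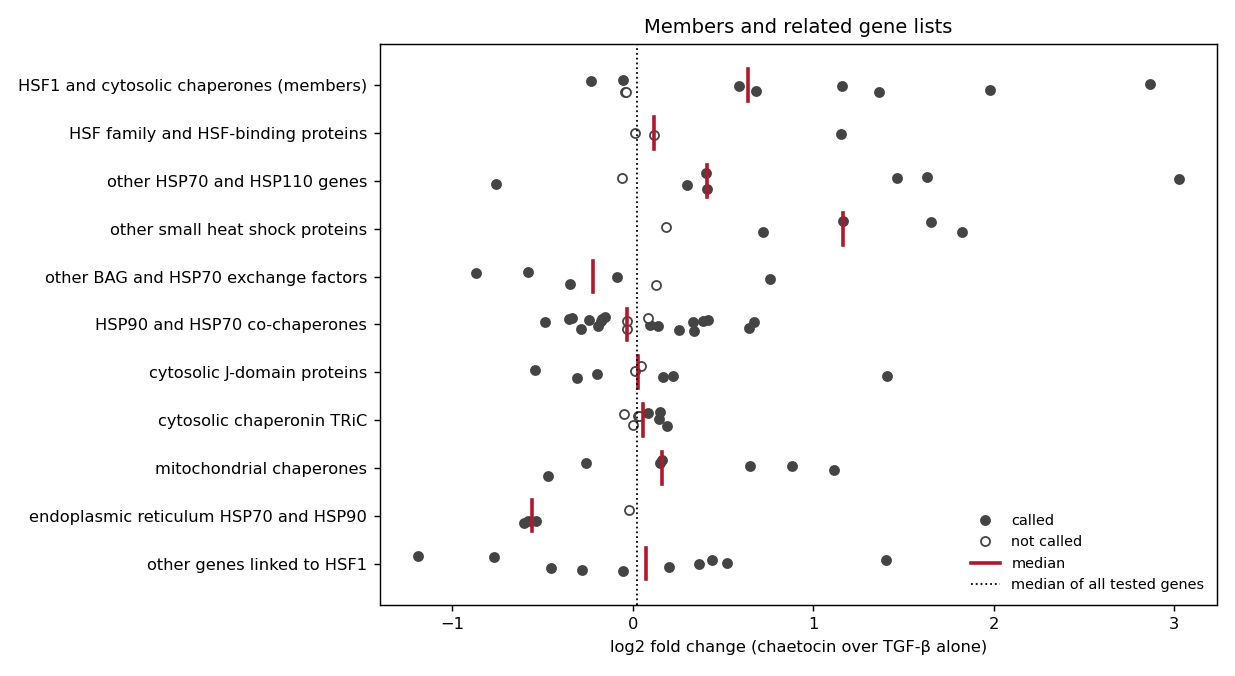
Log2 fold change, chaetocin over TGF-β alone, of each tested gene of the members and of 10 related lists, with filled points for called genes, red lines at list medians and a dotted line at the median of all tested genes (0.02). The members have a median of 0.64, the other small heat shock proteins 1.17 and the genes of the endoplasmic reticulum -0.56.

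Of the HSF family and HSF-binding proteins 3 of 6 were tested, and Hsf3, Hsf4 and Hsf5 had at most 20 counts in any library. Hsbp1l1, a relative of the HSF1-binding protein HSBP1, rose to 2.12 ± 0.502 CPM with chaetocin, against 0.95 ± 0.179 CPM with TGF-β alone (adjusted p = 6.7e-05). It was the only gene of the 3 called, 2 to 4 genes of the list were called when any 1 library was left out, and under total-count scaling all 3 were called higher. The 10 other genes linked to HSF1 were divided 5 and 5, and 6 higher and 4 lower under total-count scaling. Dedd2, a death effector domain gene, and Sqstm1, the autophagy receptor p62, rose by 1.40 ± 0.08 and 0.44 ± 0.02 (adjusted p = 3.4e-15 and 6.4e-17). Ier5, whose product binds HSF1 and promotes its activity, and Serpinh1, the collagen chaperone HSP47, had log2 fold changes of -0.77 ± 0.03 and -0.45 ± 0.03 (adjusted p = 3.6e-18 and 4.1e-15).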

How the data were processed

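Per the labels' protocols, RNA was taken with RNeasy kits and libraries were made with SMARTER mRNA kits. Per the submitters' processing notes the build was GRCm38 (mm10). The sources used here do not give the aligner, counter, annotation release or use of strand. The authors deposited 1 table with raw counts and FPKM per gene and library. It also holds the authors' mean FPKM, their log2 ratio, and p-values and FDR from an unnamed test.

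From the deposited counts, edgeR 4.0.16 in R 4.3.3 (filterByExpr, TMM, quasi-likelihood F test, Benjamini-Hochberg over 14608 genes, call at adjusted p under 0.05) compared 4 chaetocin with 4 TGF-β libraries. The standard error is the log2 fold change over the square root of F. Limma 3.58.1 and DESeq2 1.42.0 served as alternatives. The members and lists were chosen with earlier results of these data known. Named from each list were the 2 called genes with the smallest p in each direction. For likeness, the 3 genes with the highest r and a mean log2 CPM of at least 3 were named. The test was checked on simulated data in which few genes changed, evenly in both directions. In the real data 80.7% of genes were called, so that check does not cover the choice of scaling. Replicates of a group differed by more than sampling noise (mean chi-square per gene 2.04 to 2.61). The spread was still small, with a common coefficient of variation of 2.94% in the edgeR fit. It may be technical, since separate cultures are not stated. Positions and exon overlaps are from GENCODE on GRCm38 and promoters from RefSeq. There were 0 columns of other samples.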

Additional observations from a re-analysis of the deposited data

Results flagged for a closer look

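Of 26 sets of 4 libraries tested for a single outlying library, 1 was marked, where chance marks about 1 in 20. It was Hspb8 with chaetocin, where replicate 4 had 20.4 CPM and the other 3 libraries 17.9 to 18.2 CPM. The gap took a share of 0.867 of the range, above Dixon's 95% critical value for 4 libraries. Without that library the log2 fold change of Hspb8 was -0.28, and it was still called.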

How the results depend on the processing

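Hsp90aa1, Hspa1a, Hspa1b and Hsph1 kept their direction and call under all 20 alternatives each, and Hspa8 and Hspb1 under all but a fold minimum of 2, which ended their calls at 0.59 and 0.68 and those of Hsp90ab1 at -0.055 and Hspb8 at -0.23. That minimum left 3597 genes called, 10 list genes higher and 1 lower, and 0 members lower. Members lower numbered 1 with DESeq2 size factors or a minimum of 1 CPM, where Hsp90ab1 was at -0.040 and -0.037 (adjusted p = 0.0526 and 0.0682), and 0 under total-count scaling and limma on FPKM. Under total-count scaling Hsf1 was 0.068, Hsp90ab1 0.060, Bag3 0.075 and Hspb8 -0.12. In the 3 limma fits (FPKM + 1, + 0.1, and + 1 without a filter) Hsf1 was 0.017, 0.018 and 0.017, Hsp90ab1 0.0744, 0.0745 and 0.0744, Bag3 0.074, 0.076 and 0.074, and Hspb8 -0.11, -0.12 and -0.11. The cause was not tested beyond the shift of the median. The median of the lists together was 0.10 with size factors, 0.20 with total-count scaling, 0.053 without a filter, 0.11 with a minimum of 1 CPM and 0.19, 0.21 and 0.19 in the limma fits. The co-chaperone median was 0.082 under total-count scaling and 0.077, 0.080 and 0.077 in the limma fits, and the J-domain median was -0.0071 without a filter. Within the windows searched, the repeat of 3 units was in 1 of 6 members.

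Leaving out each library in turn gave 11568 to 11953 called genes, the same counts of 6 members higher and 2 lower, and a list median of 0.075 to 0.10. The ratio differences were 2.02 to 2.05, 1.11 to 1.17 and 1.48 to 1.52, at an exact permutation p of 0.0571, the smallest that 4 against 3 libraries allow. Same-numbered libraries did not deviate together (correlations -0.0134 to 0.0318), and not every library correlated best with its own number. With the replicate block 11748 genes were called, against 11791 without it, and 6 members were higher and 2 lower. The paired ratios were 2.03, 1.14 and 1.5, at an exact p of 0.125, the smallest that 4 pairs allow. Counts were too few to test 7 list genes.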
